A study of Mus musculus with 2 samples.

Results

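The 10 genes described here encode a defence program that gut epithelium runs against microbes: the serum amyloid A genes Saa1, Saa2 and Saa3, the dual oxidase gene Duox2 and its maturation factor gene Duoxa2, Nos2, Lcn2, Fut2, Il22ra1 and Il18. They were taken by symbol from 43346 annotated genes in the deposited gene tables, and all 10 were found. They were selected on their TPM in these libraries and on its ratio between them, so the values below describe the genes and test nothing. PolyA-selected RNA longer than 200 nt was also depleted of ribosomal RNA, came from C57BL/6J mice, an inbred laboratory strain, aged 8 weeks, and was sequenced as stranded pairs of 76 nt reads. The labels give 1 group, large intestine, of 2 biological replicates, each a pool of male and female littermates with health state unknown and with 1 donor record for both. No treatment or mutation is labelled. The replicate 2 library held 58233142 expected counts and the replicate 1 library 50189619. The only comparison is therefore replicate 2 over replicate 1, 1 library against 1, with no replicate check.

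Serum amyloid A proteins are small apolipoproteins that the liver releases in the acute phase response and that gut epithelium makes when microbes are close. DUOX2 sits in the apical membrane and releases hydrogen peroxide, and it reaches the surface only with DUOXA2. Both groups are known targets of the cytokine IL-22, which innate lymphoid cells and T helper cells secrete and which epithelium senses through the receptor subunit IL22RA1. FUT2 adds the terminal fucose that gut bacteria use, also under IL-22 control in mice, while LCN2 captures bacterial siderophores, NOS2 makes nitric oxide and IL-18 is a cytokine released after inflammasome cleavage.

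Several markers went against the labels. All 5 colon markers (Car1, Aqp8, Scnn1b, Scnn1g and Atp12a) lay below 1 TPM (a level scaled for transcript length and library size) in both libraries. The ileal genes Fabp6 and Slc10a2 summed to 5403 TPM in replicate 2, against 485 TPM in replicate 1, whereas the proximal small intestine genes Lct, Apoa4, Gata4 and Sis summed to 188 TPM in replicate 2, against 1580 TPM in replicate 1. The 4 Y-linked genes had 3 expected counts in replicate 2 and 2741 in replicate 1, and Xist had 12563 in replicate 2 and 17 in replicate 1, although each library is labelled as a pool of both sexes. Every difference between the libraries below goes along with these differences, whose part in it was not tested. In bulk tissue, fewer cells of a type and less RNA per cell cannot be told apart.

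Since Saa1 and Saa2 are close copies, whether reads could be told apart between them bears on the values of the amyloid genes, and their coding sequences are shown for that reason. The coding sequences of Saa1 (chr7:46740704-46742522, minus strand) and Saa2 (chr7:46752291-46754109, plus strand), each 369 bases on a 4-exon transcript of GENCODE M21 on GRCm38, matched at 351 positions, 95.1% of the total. Shown are bases 61 to 300 counted from the start codon, which hold 17 of the 18 positions that differ, in capitals.
Saa1 coding sequence: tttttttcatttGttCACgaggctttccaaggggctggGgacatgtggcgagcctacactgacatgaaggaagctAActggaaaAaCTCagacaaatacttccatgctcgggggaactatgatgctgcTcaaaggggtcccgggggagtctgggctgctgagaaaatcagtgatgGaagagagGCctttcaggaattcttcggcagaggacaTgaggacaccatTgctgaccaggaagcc
Saa2 coding sequence: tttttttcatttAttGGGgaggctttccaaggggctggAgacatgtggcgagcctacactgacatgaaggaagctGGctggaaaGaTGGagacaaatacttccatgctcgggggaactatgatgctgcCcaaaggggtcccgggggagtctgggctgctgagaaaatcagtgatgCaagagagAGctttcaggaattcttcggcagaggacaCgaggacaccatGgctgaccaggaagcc
The longest identical stretch was 73 bases, so all 294 windows of 76 bases (the read length) along the whole coding sequence held at least 1 difference. Windows were compared at the same position only. The transcripts, 609 nt for Saa1 and 606 nt for Saa2, were 93.9% identical, and their parts outside the coding sequence were not searched by window. The coding sequence of Saa3 was 76.1% identical to that of Saa1, and that of Saa4 65.2%. The authors' deposited posterior SD of the count was 0 for Saa1, Saa2 and Saa3 in both libraries, and at most 0.09 counts for any of the 10 genes.

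Saa1 was the most abundant of the 10 genes in replicate 2 and the third lowest in replicate 1. The gene lies on chromosome 7 (46740497 to 46742980, minus strand, build mm10 as for all positions of genes). It reached 355 TPM from 8045 expected counts in replicate 2, against 3.22 TPM from 56 expected counts in replicate 1. This was a 110-fold higher TPM and a log2((TPM + 1) ratio) of 6.40. Below, log2 ratios and the words 2-fold apart are on this TPM + 1 scale, which understates differences of low genes. The share of all counts was 124-fold higher, with an exact 95% interval of 95.2 to 164 that covers counting error only, as do all intervals below. Among the 13512 genes whose TPM averaged 1 or more, Saa1 had the 10th highest log2 ratio.

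Saa2 (chromosome 7, 46751790 to 46754313, plus strand), next to Saa1 and transcribed away from it, followed at a lower level. It was at 12.3 TPM from 283 expected counts in replicate 2 and at 0.28 TPM from 5 in replicate 1. The share of counts was 48.8-fold higher in replicate 2, with an interval of 20.7 to 151, and the log2 ratio was 3.38. Saa1 exceeded Saa2 28.8-fold in TPM in replicate 2 and 11.5-fold in replicate 1.

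Saa3 (chromosome 7, 46711998 to 46715700, minus strand), which macrophages and adipocytes of the mouse are also known to express, was low in both libraries. It had 2.34 TPM from 43 expected counts in replicate 2 and 0.5 TPM from 7 in replicate 1. The count share was 5.29-fold higher in replicate 2, with an interval of 2.36 to 13.9. Its log2 ratio of 1.15 lay over the 2-fold line on the TPM scale, and fell short of it at 0.63 with expected counts scaled by TMM. Saa4, a further gene of the cluster, had 4 expected counts in replicate 2, against 0 in replicate 1. Together Saa1, Saa2 and Saa3 summed to 370 TPM in replicate 2, against 4 TPM in replicate 1, of which Saa1 held 96.03% in replicate 2 and 80.5% in replicate 1.

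Summed by list, hepatocyte, macrophage, adipocyte and neutrophil markers were close in both libraries or higher in replicate 1. Fibroblast markers were slightly higher in replicate 2, at 267 TPM, against 244 TPM in replicate 1. Single genes within the lists went both ways. Albumin (Alb), the defining hepatocyte transcript, was at 0.44 TPM in replicate 2, against 0.72 TPM in replicate 1. The 8 hepatocyte genes summed to 23.1 TPM in replicate 2, against 37.03 TPM in replicate 1. Haptoglobin, given below, was the largest of them, and Ttr went the other way, at 4.58 TPM in replicate 2, against 3.61 TPM in replicate 1. The 6 macrophage genes summed to 454 TPM in replicate 2, against 463 TPM in replicate 1. The 5 adipocyte genes summed to 138 TPM in replicate 2, against 206 TPM in replicate 1. Of these, only Cidec was 2-fold apart, at 40.2 TPM in replicate 2, against 112 TPM in replicate 1. That gap was larger than the gap between the adipocyte sums. The other 4 adipocyte genes were within 2-fold, and Car3 was higher in replicate 2, at 65.85 TPM, against 59.46 TPM in replicate 1. The 8 neutrophil genes summed to 5.36 TPM in replicate 2, against 8.19 TPM in replicate 1, with Elane at 0 in both. Most of each sum was Retnlg, at 4.16 TPM in replicate 2, against 6.05 TPM in replicate 1. The other 7 lay below 1 TPM in both libraries. The 8 epithelial genes summed to 8712 TPM in replicate 2, against 9989 TPM in replicate 1, with Vil1 and Krt20 at least 2-fold lower in replicate 2. The other 6 were within 2-fold. Of these, Cldn7 was higher in replicate 2, at 1347 TPM, against 1043 TPM in replicate 1, as was Krt18, at 211 TPM, against 166 TPM. The part of these cell types in the Saa values was not tested. Of the 11 other acute phase genes 3 reached 1 TPM in both libraries. None of these was 2-fold apart, beside 5.64% of all genes. Complement C3 was at 58.3 TPM in replicate 2, against 56.2 TPM in replicate 1. Haptoglobin (Hp) was at 14.6 TPM in replicate 2, against 26.8 TPM in replicate 1, and orosomucoid (Orm1) at 2.62 TPM in replicate 2, against 3.21 TPM in replicate 1.

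**Figure D1:**
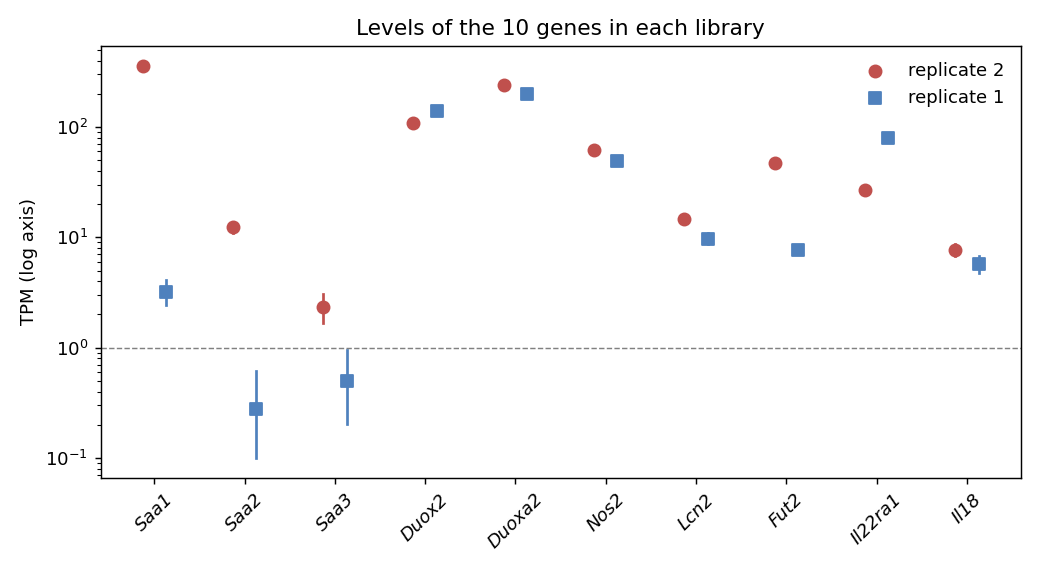
TPM (log axis) of each of the 10 genes in the replicate 2 library (circles) and the replicate 1 library (squares). Vertical lines are the authors' deposited bounds of the TPM, whose level is not stated, and the dashed line is 1 TPM. Saa1 stands at 355 TPM in replicate 2, against 3.22 TPM in replicate 1, while Duox2, Duoxa2, Nos2, Lcn2 and Il18 lie close together in both.

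The oxidase pair was abundant in both libraries, and its genes were within 2-fold between them. Duox2 (chromosome 2, 122279247 to 122298449, minus strand) was at 109 TPM in replicate 2, against 139 TPM in replicate 1, on 33191 expected counts in replicate 2 and 30416 in replicate 1. Duoxa2 (chromosome 2, 122298900 to 122302885, plus strand) was at 241 TPM in replicate 2, against 199 TPM in replicate 1, on 19214 expected counts in replicate 2 and 12126 in replicate 1. The log2 ratio was -0.35 for Duox2 and 0.28 for Duoxa2, either side of the median of all genes, -0.14, and each kept its sign under all 9 other scalings and pseudocounts. With expected counts scaled by TMM, where the median of all genes was 0.01, the ratio of Duox2 was -0.08. Duox2 amounted to 0.452 of Duoxa2 in TPM in replicate 2 and 0.702 in replicate 1. The related genes beside them were low: Duox1 was at 0.15 TPM in replicate 2, against 0.14 TPM in replicate 1, and Duoxa1 at 0.21 TPM in replicate 2, against 0.19 TPM in replicate 1.

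Part of the Duox2 signal was assigned to a transcript that keeps an intron. The annotated retained-intron transcript, 1451 nt long, held 6.02% of the gene TPM in replicate 2 and 14.1% in replicate 1. TPM is scaled for length, and in expected counts it held 469 of 33191 in replicate 2 and 1074 of 30416 in replicate 1. Whether these reads came from unspliced precursor RNA was not tested. The level of this transcript was 6.56 TPM in replicate 2, against 19.6 TPM in replicate 1. The coding transcript, 5744 nt long, was at 102 TPM in replicate 2, against 119.9 TPM in replicate 1. Of the other genes, 7 had 1 annotated transcript in the deposited tables. Of the 6 Lcn2 transcripts 1 held 97.3% of the gene in replicate 2 and 97.75% in replicate 1, and 1 of the 2 Il18 transcripts held all of it in both. By the deposited posterior mean percent, this Lcn2 transcript held 96.1% in replicate 2 and 95.15% in replicate 1. The Il18 transcript held 97.9% in replicate 2 and 94.04% in replicate 1.

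Nos2, Lcn2 and Il18 were each modestly higher in replicate 2. The inducible nitric oxide synthase gene Nos2 (chromosome 11, 78920787 to 78960254, plus strand) was at 62.2 TPM in replicate 2, against 49.5 TPM in replicate 1, a log2 ratio of 0.32. The siderophore-binding lipocalin gene Lcn2 (chromosome 2, 32384633 to 32388252, minus strand) was at 14.7 TPM in replicate 2, against 9.65 TPM in replicate 1, a log2 ratio of 0.56. Il18 (chromosome 9, 50554827 to 50581840, plus strand) was at 7.68 TPM in replicate 2, against 5.72 TPM in replicate 1, from 217 expected counts in replicate 2 and 124 in replicate 1, a log2 ratio of 0.37. All of these ratios stayed below 1 in each setting run.

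Fut2 and Il22ra1 lay on opposite sides. Fut2, the secretor fucosyltransferase gene (chromosome 7, 45648591 to 45666394, minus strand), was at 46.8 TPM in replicate 2, against 7.73 TPM in replicate 1, from 7163 expected counts in replicate 2 and 907 in replicate 1. Its count share was 6.81-fold higher in replicate 2, with an interval of 6.35 to 7.30, and its log2 ratio was 2.45. Il22ra1, the epithelial subunit of the IL-22 receptor (chromosome 4, 135728172 to 135752140, plus strand), was at 26.8 TPM in replicate 2, against 80.2 TPM in replicate 1. That was 2.99-fold higher in replicate 1, and the log2 ratio was -1.55, from 3644 expected counts in replicate 2 and 8359 in replicate 1. The receptor gene was thus lower in the library in which Saa1, Saa2 and Fut2 were higher.

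In all, 8 of the 10 genes were at 1 TPM or more in both libraries, the exceptions being Saa2 and Saa3. All 10 had a mean TPM of at least 1, Saa2 and Saa3 only through replicate 2. At least 2-fold apart were 5 of the 10, against 5.64% of the 13512 genes. Saa1, Saa2, Saa3 and Fut2 were higher in replicate 2, a direction that held 1.18% of all genes, and Il22ra1 was lower, a direction that held 4.46%. Over all genes, 159 were higher and 603 lower in replicate 2 on the TPM scale, and 199 higher and 412 lower on the FPKM scale, on which the median log2 ratio was 0.00. Since the genes were chosen with these ratios known, nothing is read from the contrast. The median log2 ratio of the 10 was 0.47, beside -0.14 for all genes.

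By mean level, Duoxa2 led at 219.95 TPM ± 30.2 (SD, n = 2), followed by Saa1 at 179 ± 249 TPM and Duox2 at 124 ± 21.5 TPM. Nos2 (55.8 ± 9.01 TPM) and Il22ra1 (53.5 ± 37.7 TPM) had close means but opposite orders in the libraries. Nos2 was the higher in replicate 2 (62.2 against 26.8 TPM) and Il22ra1 in replicate 1 (80.2 against 49.5 TPM). Fut2 came next at 27.3 ± 27.6 TPM, then Lcn2 at 12.2 ± 3.59 TPM, Il18 at 6.7 ± 1.39 TPM, Saa2 at 6.3 ± 8.52 TPM and Saa3 at 1.42 ± 1.3 TPM. For Saa1, Saa2 and Fut2 the SD exceeded the mean, so their place in this order depends on the library, as does that of Il22ra1. In replicate 2 Saa1 held 40.4% of the summed TPM of the 10 genes, against 0.651% in replicate 1. Without the amyloid genes the other 7 summed to 509 TPM in replicate 2, against 491 TPM in replicate 1.

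**Figure D2:**
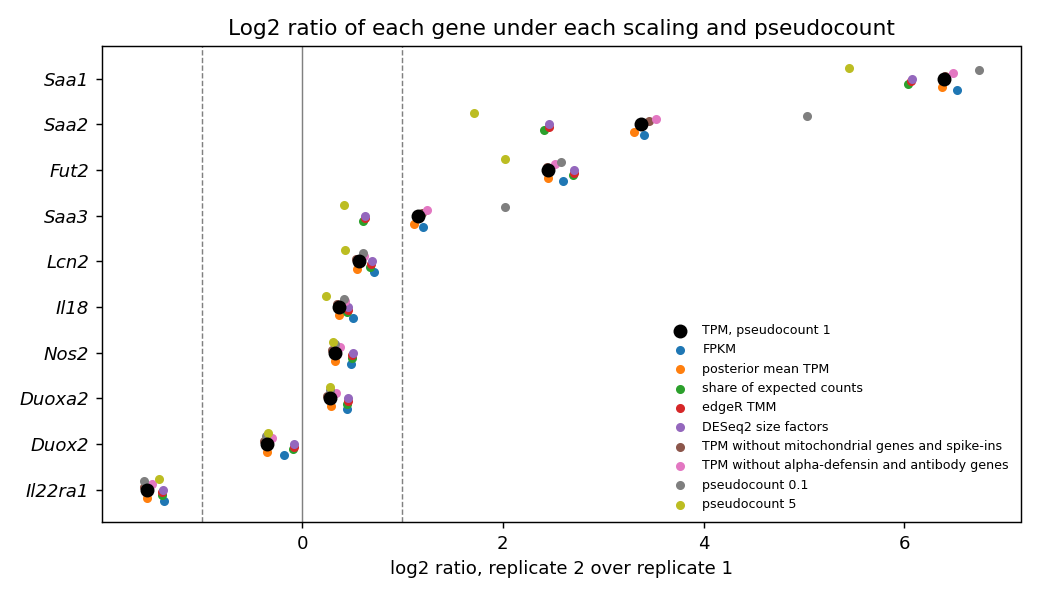
Log2 ratio of replicate 2 over replicate 1 for each gene (rows), with deposited TPM and a pseudocount of 1 in black and the other scalings and pseudocounts in colour. Dashed lines mark a 2-fold difference. Every gene keeps its sign in all settings shown, Saa1 between 5.45 and 6.74 and Il22ra1 between -1.58 and -1.38, while Saa3 crosses the 2-fold line (0.42 to 2.02).

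The bases before the start sites are given for the genes of the amyloid cluster, which were higher together, and for Duoxa2, whose start lies 0.451 kb from that of Duox2 on the opposite strand by GENCODE M21, and 673 bases from it by the RefSeq starts. Sequences are from RefSeq on GRCm38.p6, on the strand of the gene, and end at the base before the first start annotated by RefSeq or GENCODE. Capitals mark the pattern TTNNGNAA, a form of the C/EBP motif, in the amyloid genes, and TATAAA, the TATA box, in Duoxa2.
Saa1 (chr7:46742981-46743230, minus strand): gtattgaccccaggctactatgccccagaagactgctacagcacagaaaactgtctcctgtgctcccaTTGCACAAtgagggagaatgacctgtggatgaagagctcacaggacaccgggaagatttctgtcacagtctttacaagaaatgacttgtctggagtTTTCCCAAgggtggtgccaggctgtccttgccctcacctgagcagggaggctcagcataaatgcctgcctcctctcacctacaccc
Saa2 (chr7:46751583-46751789, plus strand): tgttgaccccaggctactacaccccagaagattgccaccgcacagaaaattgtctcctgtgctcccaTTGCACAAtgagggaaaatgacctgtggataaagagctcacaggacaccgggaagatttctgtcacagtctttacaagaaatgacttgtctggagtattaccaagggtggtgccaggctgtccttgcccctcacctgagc
Saa3 (chr7:46715701-46715926, minus strand): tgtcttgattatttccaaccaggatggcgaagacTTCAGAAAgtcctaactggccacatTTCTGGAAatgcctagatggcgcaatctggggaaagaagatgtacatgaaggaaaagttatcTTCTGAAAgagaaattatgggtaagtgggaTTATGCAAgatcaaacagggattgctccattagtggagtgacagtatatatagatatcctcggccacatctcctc
Duoxa2 (chr2:122298650-122298899, plus strand): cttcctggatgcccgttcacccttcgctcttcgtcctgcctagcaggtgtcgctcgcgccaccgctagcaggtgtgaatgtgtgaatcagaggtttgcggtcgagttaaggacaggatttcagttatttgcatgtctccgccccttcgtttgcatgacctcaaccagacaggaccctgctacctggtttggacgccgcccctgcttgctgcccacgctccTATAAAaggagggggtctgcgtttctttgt
The 250 bases before the RefSeq start were 94.8% identical between Saa1 and Saa2, and 48.5% between Saa1 and Saa3. Windows of 300 bases, 250 before and 50 after the RefSeq start, were found for 8 of the 10 genes, the others being Nos2 and Fut2. They were searched on both strands, including any bases that GENCODE annotates as part of the gene. TTNNGNAA was present in 5 of the 8, with 2 occurrences in Saa1, 1 in Saa2 and 4 in Saa3, and in 40.7% of 32851 windows of all genes. The matches in Duox2 and Lcn2 lay before the RefSeq start but inside the gene as annotated by GENCODE. TTCNNNGAA, the STAT palindrome, was in none of the 8 and in 8.30% of all windows. The NF-kB motif was in 1 of the 8, Il22ra1, and in 8.46% of all. TATAAA was in 2 of the 8, Duoxa2 (30 bases before the start) and Il18, and in 13.6% of all. No occurrence overlapped one of another pattern. A match in letters is not a bound site, and its absence says nothing of the factor.

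On the TPM + 1 scale the other genes around the amyloid cluster were within 2-fold between the libraries. So were most genes, as 5.64% of all genes were 2-fold apart. Within 100 kb of Saa1 lay 6 further protein-coding genes, 5 of them with a mean TPM of at least 1, and their log2 ratios ran between -0.59 and 0.58. Saal1, the gene on the far side of Saa3, was at 7.32 TPM in replicate 2, against 4.55 TPM in replicate 1, a log2 ratio of 0.58. Tph1, the gene of the enzyme that starts serotonin synthesis in gut endocrine cells, was at 2.44 TPM in replicate 2, against 1.34 TPM in replicate 1, a log2 ratio of 0.56. By count share it was 2.21-fold higher in replicate 2, with an interval of 1.71 to 2.87. Ldha, the lactate dehydrogenase gene at the edge of the window, had a log2 ratio of -0.14, the same as the median of all genes.

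Around Fut2, 1 neighbour passed the 2-fold line in the same direction. Of 17 protein-coding genes within 100 kb, 11 had a mean TPM of at least 1, and 1 of these was at least 2-fold apart. This was Ntn5, which encodes a netrin family protein, at 3.63 TPM from 310 expected counts in replicate 2 and 0.69 TPM from 44 in replicate 1. Its count share was 6.07-fold higher in replicate 2, with an interval of 4.42 to 8.53, beside 6.81-fold for Fut2. Sec1, a fucosyltransferase family gene that overlaps Ntn5 on the other strand, had 67 expected counts in replicate 2 and 7 in replicate 1. Fut1, the neighbouring fucosyltransferase gene, was at 1.39 TPM in replicate 2, against 1.05 TPM in replicate 1. Near Il18, the epithelial surface protein gene Plet1 was at 7.48 TPM in replicate 2, against 3.19 TPM in replicate 1, a log2 ratio of 1.02. Around all 10 genes, 38 neighbours had a mean TPM of at least 1, and 2 of them, Ntn5 and Plet1, were 2-fold apart. That is near the share of all genes, 5.64%, so nothing is read from these counts.

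**Figure D3:**
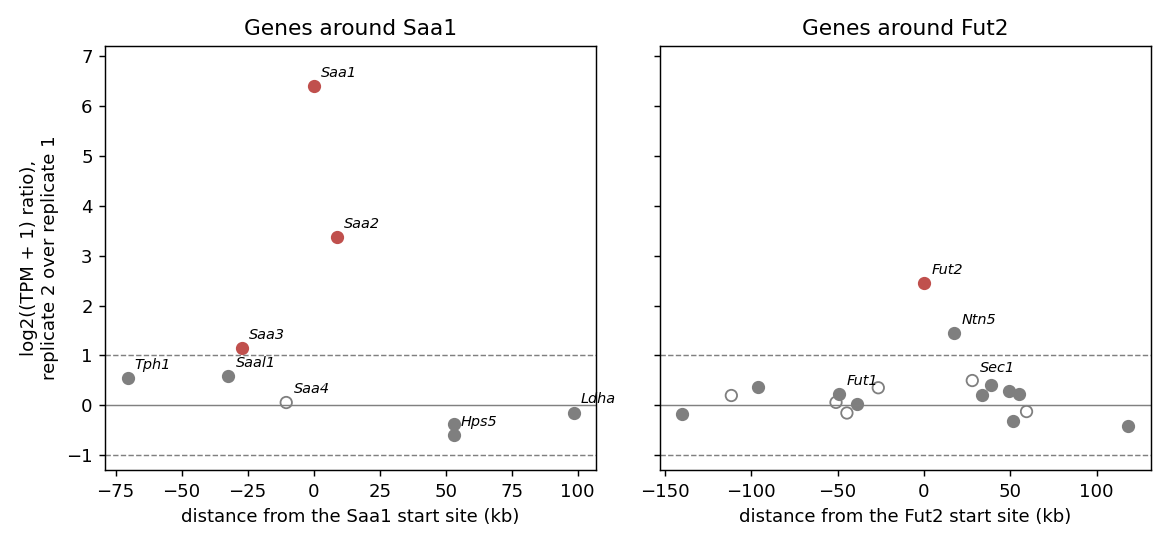
Log2((TPM + 1) ratio) of replicate 2 over replicate 1 for protein-coding genes within 100 kb of Saa1 (left) and Fut2 (right), by the distance of their start sites in kb. Red points are among the 10 genes, grey points are neighbours, open circles have a mean TPM below 1, and dashed lines mark 2-fold. Saa1, Saa2 and Saa3 stand above their neighbours, and Ntn5 stands above 2-fold beside Fut2.

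Upstream of the receptor, the cytokine transcripts were scarce. Il22 had 44 expected counts (0.85 TPM) in replicate 2, against 3 (0.08 TPM) in replicate 1, a count share 12.6-fold higher with an interval of 4.05 to 63.6. Il17f had 22 expected counts in replicate 2 and 4 in replicate 1, and Il17a had 45 in replicate 2 and 14 in replicate 1. Of the 6 marker genes of innate lymphoid and Th17 cells, 2 reached 1 TPM in each library.

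Of the 13 genes of the IL-22 and IL-23 axis, a list without Il22ra1, 9 were detected in both libraries. None of these was 2-fold apart on the TPM + 1 scale, beside 5.64% of all genes. Ahr, which encodes a ligand-activated transcription factor, was at 1.82 TPM in replicate 2, against 4.09 TPM in replicate 1, and its count share in replicate 2 was 0.471 of that in replicate 1, with an interval of 0.422 to 0.525. The signal transducer gene Stat3 was at 83.7 TPM in replicate 2, against 91.04 TPM in replicate 1. Il10rb, the second receptor subunit, was at 44.3 TPM in replicate 2, against 55.96 TPM in replicate 1. Socs3, a feedback inhibitor induced by STAT3, was at 52.9 TPM in replicate 2, against 34.0 TPM in replicate 1, a log2 ratio of 0.62. Il22ra2, the soluble IL-22 binding protein gene, was at 1.21 TPM in replicate 2, against 1.07 TPM in replicate 1.

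Detected genes of other families of the same pathways were also within 2-fold. With 5.64% of all genes 2-fold apart, counts of 0 in lists of this size are no trait of these families. In the list of IL-17 and IL-6 family inputs 8 of 13 genes were detected (1 TPM or more in both libraries) and none of them was 2-fold apart, led by the receptor gene Il17rc at 297 TPM ± 24.0 (SD, n = 2). Il17ra, its partner subunit, was at 9.32 TPM in replicate 2, against 12.5 TPM in replicate 1, and Il6st, the shared subunit of the IL-6 family receptors, at 9.23 TPM in replicate 2, against 10.7 TPM in replicate 1. Among 14 NADPH oxidase genes and partners 10 were detected and none was 2-fold apart. The small GTPase gene Rac1 was at 232 ± 11.4 TPM, the p22 subunit gene Cyba at 192 ± 17.3 TPM and the organiser gene Noxo1 at 189 TPM in replicate 2, against 136 TPM in replicate 1, while Nox1 was at 1.26 TPM in replicate 2, against 2.53 TPM in replicate 1. In the fucosylation list 9 of 12 genes were detected, again none 2-fold apart. Those that supply GDP-fucose were high in both: Gmds was at 219 ± 11.8 TPM, the Golgi carrier gene Slc35c1 at 144 ± 1.65 TPM and Tsta3 at 123 ± 1.79 TPM.

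In the IL-18 and inflammasome list 13 of 17 genes were detected in both libraries. None of these was 2-fold apart, beside 5.64% of all genes. Among those not detected in both, the sensor gene Nlrp1b was lower in replicate 2, with a log2 ratio of -1.17. It was at 0.18 TPM from 40 expected counts in replicate 2 and 1.65 TPM from 289 in replicate 1. Its mean lay below 1 TPM, so it is in no 2-fold count here. The adaptor gene Pycard was at 352 TPM ± 11.4 (SD, n = 2), the pore-forming gasdermin gene Gsdmd at 127 ± 29.3 TPM and the sensor gene Nlrp6 at 90.5 ± 19.5 TPM. Caspase-1 (Casp1), which cleaves IL-18, was at 12.7 TPM in replicate 2, against 12.96 TPM in replicate 1. Il18bp, the decoy that binds IL-18, was at 39.2 TPM in replicate 2, against 19.2 TPM in replicate 1, just inside the 2-fold line after adding 1 TPM. Both exceeded the level of Il18 itself, and the receptor genes Il18r1 and Il18rap lay below 1 TPM in both libraries.

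The secreted defence list had the most genes 2-fold apart of the 11 lists. Of its 10 genes 5 were at least 2-fold higher in replicate 2 and none lower, beside 1.18% higher and 4.46% lower of all genes. The lists were chosen with earlier results of these data known. Nothing is therefore read from this contrast, nor from the one over all lists below. Reg3b, a bactericidal C-type lectin gene, was at 43967 TPM in replicate 2, against 15224 TPM in replicate 1, and its relative Reg3g at 20357 TPM in replicate 2, against 5754 TPM in replicate 1. The goblet cell gene Retnlb was at 13.03 TPM in replicate 2, against 1.97 TPM in replicate 1, and the phospholipase gene Pla2g2a at 136 TPM in replicate 2, against 62.2 TPM in replicate 1. S100g, which encodes a calcium-binding protein and not a bactericidal one, was at 5.05 TPM in replicate 2, against 0.76 TPM in replicate 1. Itln1, an intelectin gene, was at 2958 TPM in replicate 2, against 2117 TPM in replicate 1. Pigr, the gene of the receptor that carries IgA across epithelium, lay on the other side, at 613.5 TPM in replicate 2, against 1094 TPM in replicate 1, a log2 ratio of -0.83. The Paneth cell markers Lyz1, Defa24, Ang4, Itln1 and Mmp7 summed to 20380 TPM in replicate 2, against 12453 TPM in replicate 1. In the microbe sensing list 12 of 15 genes were detected and none was 2-fold apart, with the NF-kB inhibitor gene Nfkbia at 88.6 TPM in replicate 2, against 93.8 TPM in replicate 1. The NF-kB subunit gene Nfkb1 was at 57.5 TPM in replicate 2, against 54.8 TPM in replicate 1, and Nfkbiz, an atypical NF-kB regulator gene, at 21.8 TPM in replicate 2, against 34.3 TPM in replicate 1. In the list of epithelial chemokines 6 of 11 were detected and none was 2-fold apart, led by Ccl25 at 227 TPM in replicate 2, against 277 TPM in replicate 1. Cxcl16 was at 26.1 TPM in replicate 2, against 30.7 TPM in replicate 1, and Ccl28 at 9.83 TPM in replicate 2, against 8.40 TPM in replicate 1. Over all lists, 92 of 131 matched genes averaged 1 TPM or more, of which 7 were at least 2-fold higher and 1 lower in replicate 2, beside 1.18% and 4.46% of all genes, and 84 were within 2-fold.

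**Figure D4:**
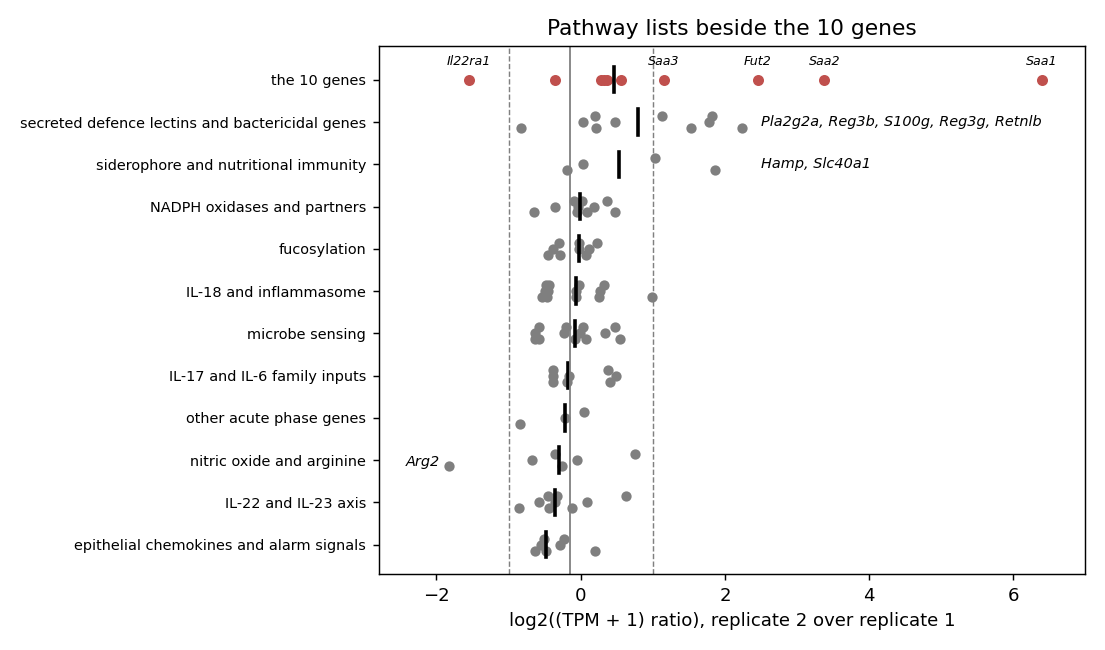
Log2((TPM + 1) ratio) of replicate 2 over replicate 1 for the genes of each pathway list averaging 1 TPM or more (grey points) and for the 10 genes (red points). Black bars are medians, the grey line is the median of all genes (-0.14) and dashed lines mark 2-fold. Most listed genes lie within 2-fold, and the secreted defence genes reach as far as Retnlb at 2.24.

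The genes most like Saa1 in their difference were not genes of this program. Among 7069 genes averaging 10 TPM or more, ordered by log2 ratio over the 2 libraries, Saa1 ranked 10th. The 3 just above it were Gm14851, Ighv3-3 and Ighv1-31, and the 3 just below were Defa37, Defa34 and Ighv1-84, with log2 ratios between 4.41 for Ighv1-84 and 7.84 for Gm14851. These are alpha-defensin locus genes on chromosome 8 and antibody heavy chain variable genes on chromosome 12. Both are multigene families, in which reads can be split between copies and single members can be uncertain. Expected counts of the alpha-defensin locus genes were fractional, and those of the antibody genes were whole numbers.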

How the data were processed

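The authors deposited, per the labels and the notes with the files, 1 gene table and 1 transcript table per library on build mm10 with GENCODE M4. For the aligner and the quantifier, names and versions were not given in the sources used. The deposited expected counts are estimates and can be fractional. The deposited TPM values stand beside an effective length per gene, and the deposited FPKM values served as an alternative. The deposited transcript percent is the share of a gene's TPM. The deposited bounds of the TPM are a signal column whose level is not stated. The deposited posterior SD of each count is a further score. Symbols and positions came from GENCODE M21, and sequences from RefSeq on GRCm38.p6 and GENCODE M21.

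The members and lists were chosen with earlier results of these data known. The log2 ratio of replicate 2 over replicate 1 was taken after adding 1 to each TPM, which understates differences of low genes, for genes averaging 1 TPM or more. Intervals are exact binomial (Clopper-Pearson, 95%) on the shares of rounded expected counts. No p-value was computed, since each side is 1 library. Named genes were all 10 genes, the 3 highest of each list with those at least 2-fold apart, and the 3 genes on each side of Saa1 in order of ratio, and could include neighbours within 100 kb and cell type markers. Nox1, Nos1, Nos3, Il17a, Il17f, Casp1, Il18bp, Il18r1, Il18rap, Nlrp1b, Il22ra2, Ahr and Pigr were named after their values were seen. Of 132 list genes 131 were matched. The ratio step was tested on simulated data. Scaling alternatives used edgeR 4.0.16 and DESeq2 1.42.0 in R 4.3.3, and other steps scipy 1.17.1, Biopython 1.88, pandas 2.3.3, numpy 2.4.6 and matplotlib 3.10.9 in Python 3.11.15. Junction and contig lists on mm9 were not used here. The values of 1 listed gene are not reported here.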

Additional observations from a re-analysis of the deposited data

How the results depend on the processing

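The number of genes at least 2-fold apart was 5 of 10 with TPM, FPKM, posterior mean TPM, both rescaled TPM sets, a pseudocount of 0.1 and no filter. It was 4 with shares of expected counts, TMM, DESeq2 size factors and a pseudocount of 5, each of which took Saa3 below 2-fold, and with a minimum mean of 5 TPM, which leaves Saa3 out. The median log2 ratio of the 10 ran between 0.36 and 0.61, and listed genes at least 2-fold apart numbered between 6 and 11. The share of all genes at least 2-fold apart, 5.64% with TPM, was 8.4% with a pseudocount of 0.1, 3.8% with TMM, 3.09% with a pseudocount of 5 and 1.85% without a filter on low values, since genes at or near 0 then count. With FPKM, 199 genes were higher and 412 lower, and with TMM 157 were higher and 356 lower. With one library left out in turn, the genes detected numbered between 8 and 10 of 10, and the summed TPM of Saa1, Saa2 and Saa3 between 4 and 370. No paired analysis was possible because the replicate numbers belong to 1 group and are shared with no other. Depth limits Saa2, Saa3 and Il22 in replicate 1, which rest on 5, 7 and 3 counts.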

Other observations

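Iron and arginine handling genes, which share substrates with the lipocalin and the nitric oxide synthase, differed in part. In the siderophore and nutritional immunity list 4 of 7 matched genes had a mean TPM of at least 1. Of these, the iron exporter gene Slc40a1 was at 14.75 TPM from 2519 expected counts in replicate 2 and 3.34 TPM from 379 in replicate 1, a log2 ratio of 1.86. The iron hormone gene Hamp had 19 expected counts in replicate 2 and 3 in replicate 1. Slc11a1, a phagocyte metal transporter gene, was at 13.3 TPM in replicate 2, against 15.4 TPM in replicate 1, and Slc22a17, a lipocalin receptor gene, at 5.24 TPM in replicate 2, against 5.12 TPM in replicate 1. The neutrophil calprotectin genes S100a8 and S100a9 lay below 1 TPM in both libraries.

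In the nitric oxide and arginine list 6 of 8 genes were detected in both libraries. Of these 1 was 2-fold apart, beside 5.64% of all genes, and nothing is read from this count. Arg2, the mitochondrial arginase gene, was at 31.4 TPM in replicate 2, against 114 TPM in replicate 1, a log2 ratio of -1.83. Ass1, which makes the precursor of arginine, was at 17.02 TPM in replicate 2, against 9.72 TPM in replicate 1, and Asl was at 28.05 TPM in replicate 2, against 29.2 TPM in replicate 1. The other nitric oxide synthase genes were low, with Nos3 at 2.55 TPM in replicate 2, against 3.23 TPM in replicate 1, and Nos1 at 0.48 TPM in replicate 2, against 0.71 TPM in replicate 1. Regional marker sums differed between these libraries as given above, and their part in these values was not tested.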
